A study of Mus musculus with 12 samples.

Results

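The mitochondrial ribosomal protein genes are the nuclear genes that encode the protein shell of the mitochondrial ribosome. They were taken here as all genes whose symbol is Mrpl or Mrps followed by a digit, with named pseudogenes left out. This rule was met by 76 of the 21937 listed genes. All 76 were among the 14634 that entered the test, for which the normalized read count had to average 10 or more over the libraries. The RNA came from myelin, the membrane stack that oligodendrocytes wrap around axons, purified from whole brains of wild-type male c57Bl6/N mice. The mice were 18 days (P18), 75 days (P75), 6 months or 24 months old, and each age had 3 libraries, 12 in all, described as individual mice for the age of 6 months. No group carried an engineered allele or received a treatment. A normalized read count is the number of reads on a gene divided by a size factor of its library, and it is not corrected for transcript length.

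The mitochondrial ribosome translates the few proteins that are still encoded in mitochondrial DNA, which are membrane subunits of the respiratory chain and of ATP synthase. Its ribosomal RNAs are made in the mitochondrion, whereas its proteins are translated in the cytosol, imported and assembled in the matrix. The small subunit (Mrps genes) binds the messenger RNA and the large subunit (most Mrpl genes) joins the amino acids. Many of these proteins have counterparts in bacterial ribosomes, and others are found only in mitochondria. Purified myelin holds cytoplasm of the sheath together with traces of axons and of neighbouring cells, so fewer cells of a type and less RNA per cell could not be told apart in these bulk samples.

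The libraries held 20299052 to 27214385 reads on genes. The 76 genes together took 0.242 to 0.427% of these reads, and the lowest of them in any library, Mrps28, was still covered by 283 reads. The myelin gene Mbp took 4.76 to 20.8% of the reads, so the labelled fraction carried its defining transcript at every age. P75 replicate 1 and 6 months replicate 1 stood apart from the other libraries of their ages. In these 2 libraries 96.1% and 97.4% of the 76 genes lay below the mean of their age, and results that rest on them are given with and without them. Of the 76 genes 26 share exon bases with another gene and 8 share more than 25%, and 3 have a named pseudogene, so that their reads could have been split or lost in the counting.

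The family as a whole was highest in young myelin and lowest at 6 months. The mean was highest at P18 in 51 genes and at P75 in 23, and it was lowest at 6 months in 61 and at 24 months in 11. The summed normalized read count of the 76 genes was 93842.5, 93879 and 96317 at P18 and 82172, 92478 and 93526 at P75. It was 52453, 60379 and 63278 at 6 months and 67337, 65574 and 66399.6 at 24 months. The libraries of the older ages thus all lay below those of both younger ages, and the libraries at 24 months all lay above those at 6 months.

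**Figure D1:**
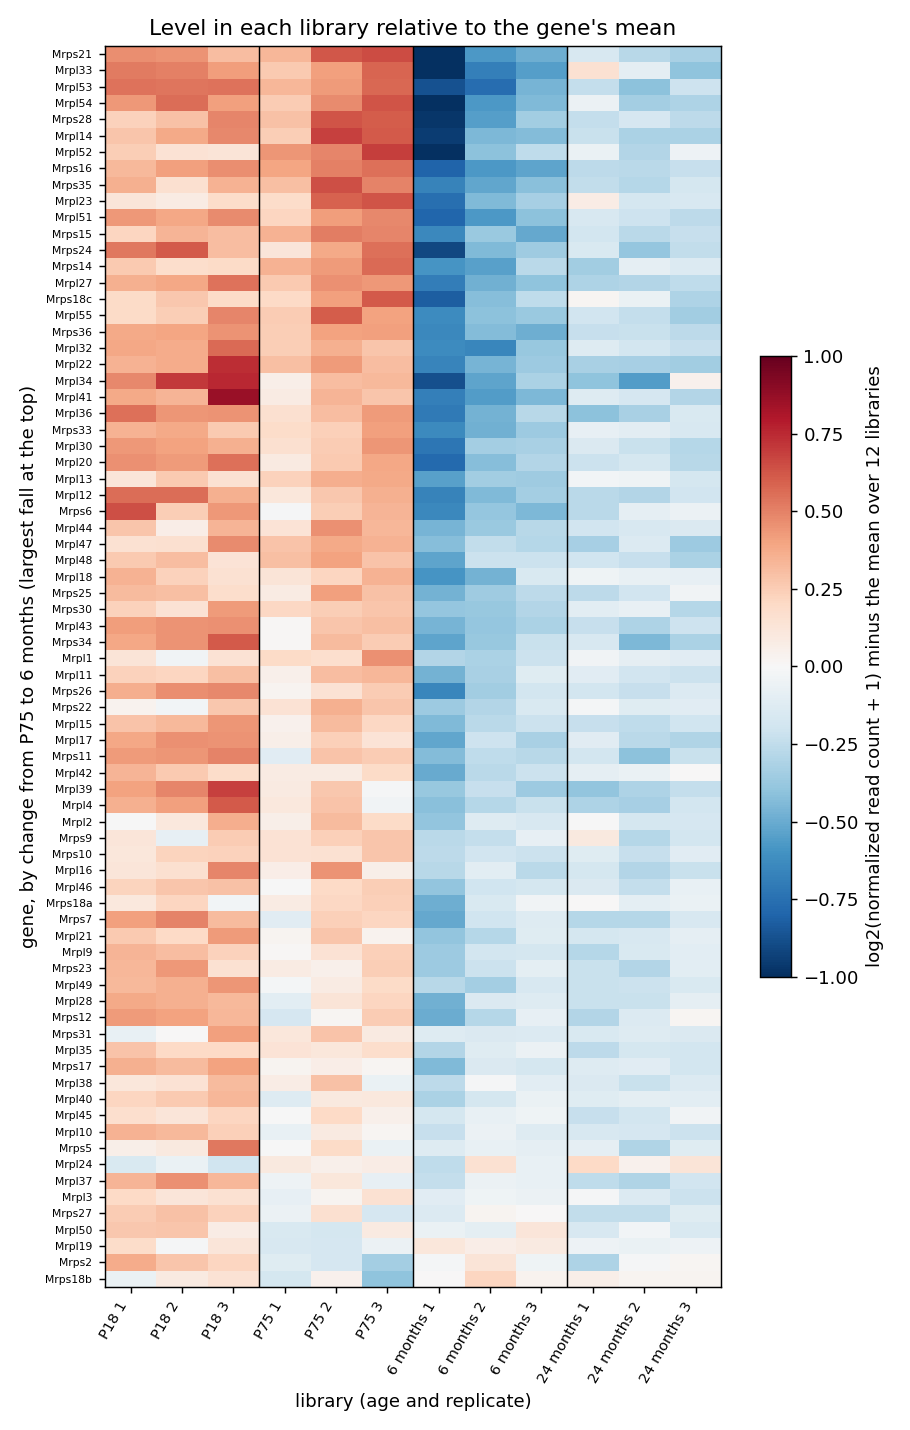
Level of each of the 76 genes (rows, ordered by the change from P75 to 6 months) in each of the 12 libraries (columns), as log2(normalized read count + 1) minus the gene's mean over the libraries. Red is above and blue below the mean, with the scale ending at 1 in either direction. Nearly all rows are red at P18, with Mrpl24 as an exception. Nearly all are blue at 6 months, with Mrps18b, Mrps2 and Mrpl19 at the bottom as exceptions.

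Both subunits showed the fall at 6 months. The genes of the large subunit, 49 with Mrps30 and Mrps18a counted by the place of their products, summed to 54524 to 61678 at P75 and 34994 to 42336 at 6 months. Those of the small subunit, 26 genes, summed to 26474 to 30528 and 16825.5 to 20236. From P75 to 6 months, where 29.4% of all tested genes were called lower and 31.2% higher, 43 of the 49 large subunit genes fell and 1 rose, with a median log2 change of -0.55, and 22 of the 26 small subunit genes fell and 2 rose, with a median of -0.53. By origin, 38 of 44 genes with a bacterial counterpart fell with a median over the 44 of -0.54, and 24 of 28 mitochondria-specific genes fell with a median over the 28 of -0.53. The differences between these medians were not tested. Mrps36, whose product is known as a component of the 2-oxoglutarate dehydrogenase complex rather than of the small subunit, read 1174.5, 1315 and 1319.9 at P75 and 634, 736 and 706 at 6 months. It fell by 0.88 on the log2 scale, with a standard error of 0.08 (limma, adjusted p = 6.51e-07).

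**Figure D2:**
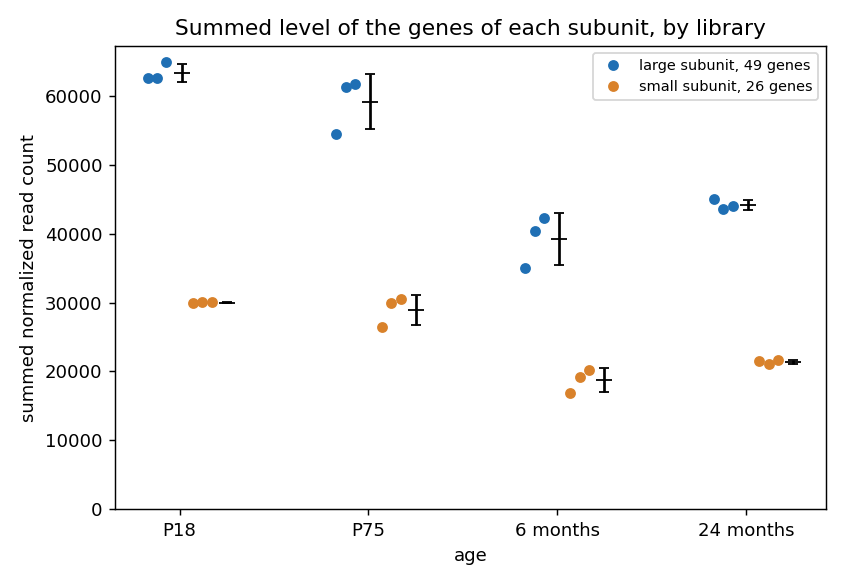
Summed normalized read count of the large subunit genes (blue, 49) and the small subunit genes (orange, 26) in each library, with the mean and SD of the 3 libraries of an age in black. Both subunits drop between P75 and 6 months, and the lowest point at P75 and at 6 months is replicate 1.

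The first comparison asked what changed between active myelination at P18 and the young adult at P75. Of the 76 genes 23 fell, against 22.9% of all tested genes called lower, and 4 rose, against 25.9% called higher. Their median log2 change was -0.10, with 0.015 over all tested genes. Called means a false discovery rate below 0.1 in a limma fit over all tested genes. The direction moved with the scaling, which moved all genes as well. With every library scaled to the same total the median of all genes moved to 0.139 and that of the 76 to 0.022. In that fit 11 of the 76 rose and 3 fell, against 32.4% of all genes higher and 12.5% lower. Under both scalings the median of the 76 lay below that of all genes. Without P75 replicate 1, 10 of the 76 fell and 6 rose, against 20.8% of all genes lower and 23.4% higher. Without P75 replicate 3, 25 fell and 0 rose, against 19.7% and 22.9%. Without P18 replicate 2 and without P75 replicate 2, 2 rose, against 23% and 23.4% of all genes. Other markers differed between these ages too, as 6 of 6 myelin markers fell with a median log2 change of -1.21, 2 of 4 precursor markers fell with a median of -0.89, 3 of 6 microglial markers rose with a median of 0.24, and 2 of 8 neuronal markers rose and 4 fell with a median of -0.29. Their part in the changes of the ribosomal genes was not tested.

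Mrps2, a small subunit protein with a bacterial counterpart, had the largest fall of this step. It read 845, 794 and 759 at P18 and 601, 583 and 515 at P75, with no overlap between the ages. The log2 change was -0.50 ± 0.10 (SE, limma, adjusted p = 0.00101). Mrpl34, the counterpart of the short bacterial protein bL34, read 784, 917 and 949 at P18 and 586, 695 and 704 at P75. It fell by 0.42 on the log2 scale. Mrpl39, Mrpl37 and Mrps12 followed with log2 changes of -0.41, -0.38 and -0.35. Mrpl39 and Mrpl37 encode mitochondria-specific proteins of the large subunit, and Mrps12 encodes the counterpart of the bacterial decoding protein uS12. The falls of Mrps2, Mrpl39 and Mrpl37 passed the test under every alternative run, the same total included. Those of Mrpl34 and Mrps12 were lost with the same total and without P75 replicate 1, and that of Mrpl34 also without P18 replicate 2. The 4 genes that rose were Mrpl52, Mrpl23, Mrps14 and Mrpl24. Mrpl52 went from 1067, 994 and 984 to 1225, 1264 and 1457, a log2 change of 0.37 ± 0.15 (limma, adjusted p = 0.0634). The other 3 had log2 changes of 0.34, 0.23 and 0.21. Without P75 replicate 3 none of the 4 was called by limma, and 0 of the 76 were higher at an unadjusted p under 0.05. With all libraries edgeR and DESeq2 each called 3 members higher, Mrpl24 not among them. The call of Mrpl23 was also lost without P75 replicate 2, that of Mrpl52 without P18 replicate 2, and that of Mrps14 without any 1 of P18 replicates 2 and 3 and P75 replicate 2. That of Mrpl24 was lost in each leave-out except that of P18 replicate 2.

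Between P75 and 6 months most of the family fell. Of the 76 genes 66 were lower at 6 months, where 29.4% of all tested genes were, and 3 were higher, where 31.2% were. The median log2 change was -0.54 in the family and 0.005 over all genes. In 64 genes the 3 libraries at 6 months all lay below the 3 at P75, which held for 30.9% of all tested genes. A fall of more than 2-fold was called for 9 of the 76 and for 4% of all tested genes. Those 9 were Mrps21, Mrpl33, Mrpl53, Mrpl54, Mrps28, Mrpl14, Mrpl52, Mrps16 and Mrps35. With both low libraries left out, a choice made after the data were seen, 64 of the 76 fell, against 23.9% of all genes, and the median of the 76 was -0.553. Across the first 2 steps 17 genes fell in both, 3 rose and then fell (Mrpl23, Mrpl52 and Mrps14), and 2 fell and then rose (Mrps2 and Mrpl19). These 2 steps share the libraries at P75. How many of all tested genes showed the same patterns was not counted, so these counts only describe the members.

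**Figure D3:**
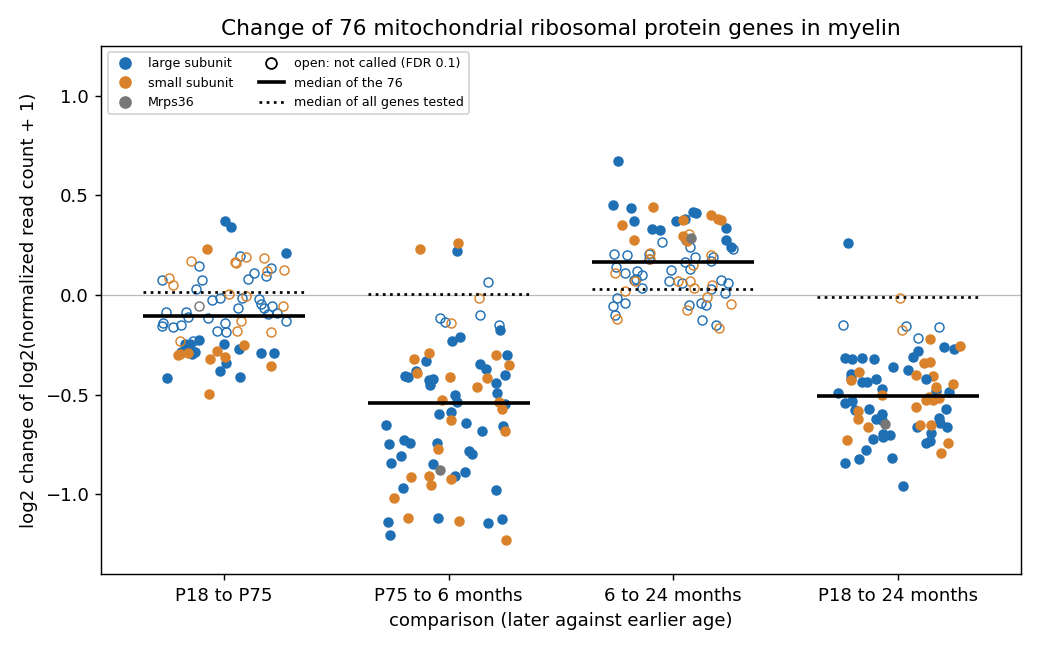
Change of each of the 76 genes in the 4 comparisons, on the log2(normalized read count + 1) scale, by subunit. Filled points were called at a false discovery rate of 0.1, the solid line is the median of the 76 and the dotted line that of all genes tested. The medians of the 76 are -0.10, -0.54, 0.17 and -0.51 from left to right.

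Mrps21 and Mrpl33 had the largest falls. Mrps21, the counterpart of bacterial bS21 in the small subunit, read 1972.5, 1955 and 1774 at P18, 1799.8, 2193 and 2247 at P75, 708, 960.4 and 1016 at 6 months and 1279.9, 1179.6 and 1143 at 24 months. From P75 to 6 months it fell by 1.23 ± 0.12 on the log2 scale (limma, adjusted p = 1.09e-06), which is 0.427 times the earlier level. Mrpl33, the counterpart of bacterial bL33 in the large subunit, read 1501, 1479 and 1398 at P18, 1251, 1388 and 1568 at P75, 482, 649 and 711 at 6 months and 1162, 977 and 791 at 24 months. It fell by 1.20 ± 0.14 (limma, adjusted p = 5.46e-06). In both genes the libraries at 6 months lay below those of every other age. Mrps21 lies at chr3:95666557-95675442 on the minus strand and Mrpl33 at chr5:31899308-32004345 on the plus strand (mm9), and the annotated exons of Mrpl33 share 1.97% of their bases with Bre.

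Their promoters are shown because these 2 genes fell most, that of Mrps18b because it had the largest rise of the step, and that of Mrps11 because its window overlaps that of another member. The sequences are from RefSeq on GRCm38.p6 and read 5′ to 3′ on the strand of the gene, and the first 2 run from 100 bases before the annotated start to 30 bases after it. Capitals mark exact matches on either strand to 3 motifs of factors known to act on mitochondrial genes. These are GCGCATGC for NRF-1, CCGGAAG for the ETS factor GABPA and AAGATGGCG for YY1, and their matches did not overlap in the stretches printed.
Mrps21, chr3:95871485-95871614, minus strand: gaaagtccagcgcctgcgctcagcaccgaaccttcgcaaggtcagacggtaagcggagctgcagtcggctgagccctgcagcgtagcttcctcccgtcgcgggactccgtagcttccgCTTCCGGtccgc
Mrpl33, chr5:31613851-31613980, plus strand: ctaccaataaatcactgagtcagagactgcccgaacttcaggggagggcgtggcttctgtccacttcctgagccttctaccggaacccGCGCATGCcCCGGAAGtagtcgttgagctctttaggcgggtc
Mrps18b, chr17:35916561-35916690, minus strand, 250 to 121 bases before the start: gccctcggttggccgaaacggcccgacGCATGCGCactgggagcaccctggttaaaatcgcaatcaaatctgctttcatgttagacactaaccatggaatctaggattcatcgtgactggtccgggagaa
Mrps11, chr7:78783001-78783130, plus strand, 130 bases up to the start: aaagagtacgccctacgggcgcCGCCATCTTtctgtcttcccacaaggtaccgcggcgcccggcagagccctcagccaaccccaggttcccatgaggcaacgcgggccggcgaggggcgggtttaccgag
The match in Mrps21 is the GABPA motif on the opposite strand, from base 19 after the start. Mrpl33 holds the NRF-1 motif from base -12 and the GABPA motif from base -3. In Mrps18b the NRF-1 motif on the opposite strand begins at base -223, and another NRF-1 match and a GABPA match lie downstream of the start, outside the stretch shown. The match in Mrps11 is the YY1 motif on the opposite strand from base -108. The 300-base windows of Mrps11 and Mrpl46 share 141 bases, but that match lies outside them, and the window of Mrpl46 held none of the 3 motifs. Promoter windows of 300 bases were at hand for 67 of the 76 genes, 73 windows in all, and 34 of the 73 held at least 1 of the 3 motifs. NRF-1 was found in 11% of the 73 windows against 2.71% of all 32851 windows and 4.76% of the 13055 windows of tested coding genes. For GABPA the shares were 32.9%, 8.86% and 14.8%, and for YY1 they were 11%, 1.4% and 2.53%. The matches describe letters only, and binding was not measured.

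Mrpl53 and Mrpl54 of the large subunit and Mrps28 of the small subunit had the next largest falls. Mrpl53 read 1207.5, 1291.5 and 1425 at P75 and 524, 566 and 695 at 6 months, a log2 change of -1.14, but 87.1% of its exon bases are shared with Ccdc142 on the same strand. Mrpl54 read 849, 991 and 1103 and then 345, 478 and 525, a log2 change of -1.14. Mrps28 read 553, 701 and 689 and then 229.9, 308 and 354, a log2 change of -1.13. None of the 3 overlapped between the ages. Over the 50 members with no exon shared with another gene 45 fell and 1 rose, and their median was -0.51.

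The 3 genes that rose from P75 to 6 months were Mrps18b, Mrps2 and Mrpl19. Mrps18b read 414, 481 and 354 at P75 and 468, 542 and 478 at 6 months, so the ages overlapped, and its log2 change was 0.26 ± 0.11 (limma, adjusted p = 0.0561). Mrps2 read 646, 714 and 633 at 6 months, above all 3 libraries at P75, with a log2 change of 0.23. Mrpl19, the counterpart of bacterial bL19, went from 456, 452 and 489.7 to 552, 533 and 543, a log2 change of 0.22. Both Mrpl19 and Mrps18b overlap other genes, since Mrpl19 shares 36% of its exon bases with AW146020 and Mrps18b 30.5% with the noncoding Gm16279, both on the opposite strand. With every library scaled to the same total none of the 3 was called by limma, with 0 of the 76 higher at an unadjusted p under 0.05. On their own scaling edgeR and DESeq2 each called 3 members higher, and they were not run on the same total. The calls of Mrps18b and Mrps2 were also lost without P75 replicate 3 or without 6 months replicate 2, and that of Mrpl19 with a trend on length and GC content removed.

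The test was not passed in this step by 7 genes, Mrpl3, Mrpl10, Mrpl24, Mrpl37, Mrpl50, Mrps5 and Mrps27. Mrpl3 and Mrps5 passed the test in none of the 3 consecutive steps. Mrpl3, the counterpart of bacterial uL3, read 1099, 1041 and 1062 at P18, 901, 974 and 1060.2 at P75, 884, 928 and 919.6 at 6 months and 947, 868 and 825 at 24 months. Mrps5 read 760.5, 782 and 1056 at P18 and 687, 593 and 673 at 24 months. Both were nevertheless lower at 24 months than at P18, with log2 changes of -0.28 and -0.40 (limma, adjusted p = 0.00804 and 0.00676), though that of Mrpl3 was lost with the same total. With the length and GC trend removed Mrpl3 and Mrps5 fell from P18 to P75, with log2 changes of -0.21 and -0.25 (limma, adjusted p = 0.0305 and 0.0906). In that fit Mrps5 and Mrpl37 also fell from P75 to 6 months, both by 0.24 (limma, adjusted p = 0.0952 and 0.0157), and Mrpl50 and Mrps27 rose by 0.32 and 0.17.

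**Figure D4:**
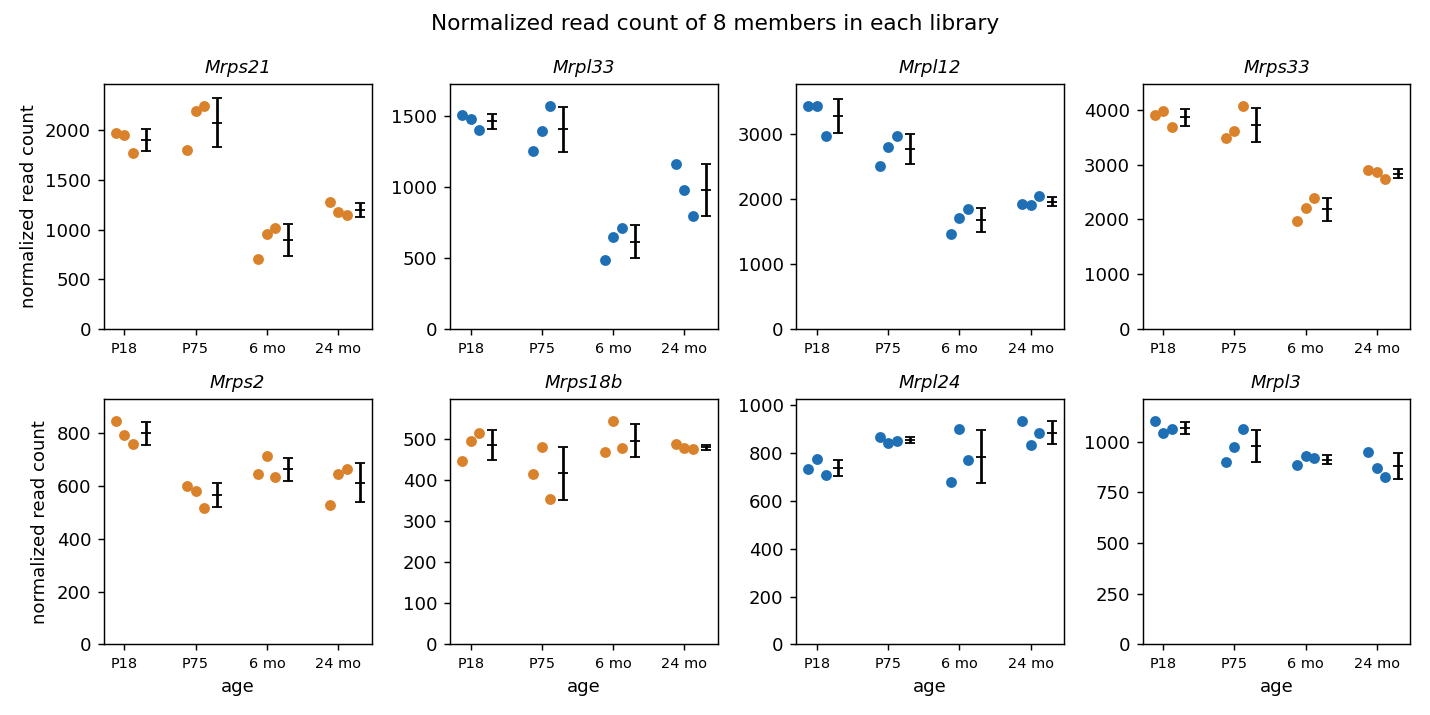
Normalized read count of 8 members in each library by age, with the mean and SD of the 3 libraries in black, each vertical axis starting at 0. Mrps21, Mrpl33, Mrpl12 and Mrps33 are low at 6 months, whereas Mrps2 is low at P75 and Mrps18b, Mrpl24 and Mrpl3 lie in narrower ranges.

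Transcript length moved with the fall. Among all tested genes with an annotated transcript of at most 1000 bases the median log2 change from P75 to 6 months was -0.634 and 70.6% were called lower, and the 30 members of that length had a median of -0.845 with 29 called lower. Over 1000 and up to 2000 bases the medians were -0.159 for all genes and -0.396 for the 30 members. Over longer transcripts the sign of the background turned, as all genes had medians of 0.096 up to 4000 bases and 0.141 above, where the 11 and 5 members had medians of -0.492 and -0.536. Across the 76 members length and log2 change correlated with Pearson's r = 0.379 and Spearman's rho = 0.478, a description over genes that share the 12 libraries. With a smooth trend on merged exon length and GC content removed from each library, 50 members fell and 6 rose, and their median was -0.297. Of the 50, 48 were among the 66 of the uncorrected fit. Of all genes 29% were called lower and 30.7% higher. Mrps21 and Mrpl33 still fell, by 0.84 and 1.30 on the log2 scale. The part of transcript length in the fall was not tested further.

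**Figure D5:**
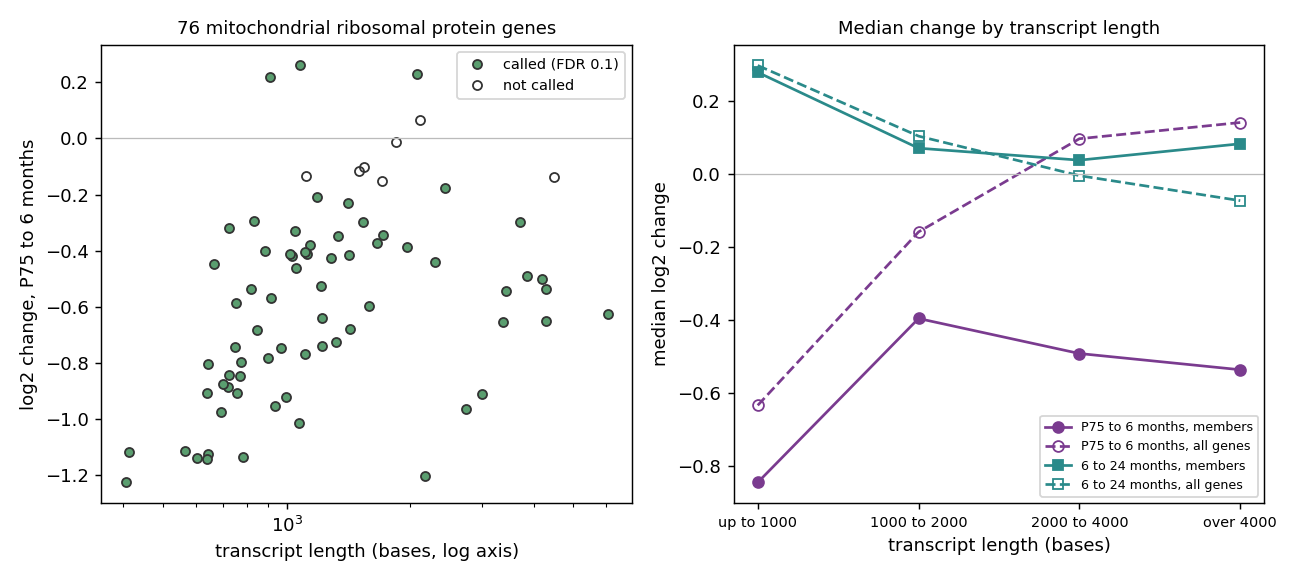
Left, log2 change of each of the 76 genes from P75 to 6 months against transcript length on a log axis. Right, median log2 change of the members (solid) and of all tested genes (dashed) in 4 classes of transcript length, from P75 to 6 months (purple) and from 6 to 24 months (green). From P75 to 6 months the members lie below all genes in every class, and from 6 to 24 months the 2 lines run close together for short transcripts.

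From 6 to 24 months part of the family rose again. Of the 76 genes 24 rose, against 16.6% of all tested genes, and the median log2 change was 0.17 against 0.028. By limma 0 of the 76 fell, against 12.7% of all genes, with 0 lower at an unadjusted p under 0.05 and 0 by edgeR and by DESeq2. All 24 had fallen in the step before, as had 66 of the 76, and 23 of them were still lower at 24 months than at P18, as were 69 of the 76. The fall and the rise share the libraries at 6 months, so this overlap is no separate evidence. The rise leaned on 6 months replicate 1, since without that library 7 genes rose, 9.21% of the 76 against 9.94% of all genes, and the median was 0.08. Without 24 months replicate 1, 13 rose, 17.1% against 11.9%, and with the same total 12 rose, 15.8% against 9.53%. It also followed length, as all tested genes of at most 1000 bases had a median of 0.297 and the 30 members of that length one of 0.278, with 17 of the 24 risers among them. With the length and GC trend removed 6 members rose, 3 fell and the median was 0.001, with 13% of all genes called higher and 15.1% lower. The 6 were Mrpl13, Mrpl23, Mrpl33, Mrpl51, Mrps21 and Mrps35, and the 3 were Mrpl10, Mrpl50 and Mrps27.

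Mrpl33 had the largest rise, from 614 ± 119 to 977 ± 185 (SD, n = 3), with a log2 change of 0.67 ± 0.14 (SE, limma, adjusted p = 0.00601). It was the one member to fall and then rise by more than 0.5 on the log2 scale. Mrpl54, Mrps21, Mrpl52 and Mrpl23 followed with log2 changes of 0.45, 0.44, 0.44 and 0.42. Of these Mrpl52 overlapped between the ages, with 429.8, 679 and 753 at 6 months and 859.9, 734 and 869 at 24 months. Without 6 months replicate 1 none of these 4 was called, and without 24 months replicate 1 only Mrps21 was, whereas Mrpl33 was called under every alternative run. Mrpl23, a protein near the exit of the peptide tunnel, went from 708, 879 and 949.8 to 1253, 1057 and 1065 without overlap.

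Over the whole span, from P18 to 24 months, 69 of the 76 were lower, against 34.3% of all tested genes, and 1 was higher, against 34.7%. The median log2 change was -0.51 and that of all genes -0.010. This comparison uses the same libraries as the steps before and is no separate evidence. With the length and GC trend removed 67 were lower and 1 higher, against 39.2% and 32.2% of all genes in that fit. Beside them 5 of 6 myelin markers were lower (median log2 change -1.21). Of the microglial genes Itgam had the largest change, 1.47, and 5 of 6 passed as higher (median 0.91), and 3 of 8 neuronal markers were higher and 3 lower, with a median of -0.21. Of 4 endothelial markers 3 were higher and 1 lower, of 6 astrocyte markers 3 and 1, and of 4 precursor markers 2 were lower, Gpr17 by 2.71. The part of these cell types was not tested. Mrpl34 had the largest fall, from 784, 917 and 949 to 424, 381 and 579, a log2 change of -0.96 ± 0.15 (limma, adjusted p = 4.95e-05). Mrpl24, the counterpart of bacterial uL24, was the gene that was higher, with 732, 775 and 708 at P18 and 932, 836 and 886 at 24 months, a log2 change of 0.26 (limma, adjusted p = 0.0268). Its exons share 26.3% of their bases with Rrnad1 on the opposite strand. Mrpl1, Mrpl19, Mrpl23, Mrps18a, Mrps18b and Mrps22 were not called, but Mrpl1 and Mrpl19 were called lower with the length and GC trend removed, at -0.34 and -0.26.

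The stalk of the large subunit, which recruits the translation factors, is built from the products of Mrpl10, Mrpl11 and Mrpl12. Mrpl12, whose product also binds the mitochondrial RNA polymerase, read 3438, 3436 and 2979 at P18, 2517, 2808 and 2978 at P75, 1469.7, 1717 and 1842 at 6 months and 1931, 1908 and 2042 at 24 months. It fell in both of the first 2 steps, by 0.25 and 0.73 on the log2 scale (limma, adjusted p = 0.0519 and 1.57e-05). The earlier fall was lost with the same total and without P18 replicate 1, P18 replicate 2 or P75 replicate 1. Mrpl11 read 1349.8, 1616 and 1637 at P75 and 938, 1038 and 1198 at 6 months and fell by 0.54, and this fall was lost with the length and GC trend removed, at 0.05. Mrpl10, which anchors the stalk, read 1432, 1406 and 1329 at P18 and 1069, 1199 and 1139.8 at P75 and fell in that step by 0.29, a call lost with the same total, with a log2 change of -0.15 in the next that was not called. The differences between the 3 genes were not tested.

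The 3 paralogs of bacterial bS18 differed in their profiles. Mrps18c, closest in role to the bacterial protein in the small subunit, read 1248, 1447 and 1664 at P75 and 615, 809.5 and 913 at 6 months, and fell by 0.91 ± 0.13 on the log2 scale (limma, adjusted p = 3.84e-05). Mrps18a, whose product sits in the large subunit, went from 1060.2, 1157 and 1178 to 714, 899 and 979 and fell by 0.40 ± 0.11 (limma, adjusted p = 0.00473). Mrps18b rose in the same step, as given above, and between P18 and 24 months its log2 change of -0.02 was not called. The differences between the paralogs were not tested. Mrps30, whose product is also a protein of the large subunit despite its name, read 901, 926 and 945 at P75 and 597, 599 and 635 at 6 months and fell by 0.60.

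A list of 12 members whose mutations are known to cause human mitochondrial disease was followed, and it need not hold every such gene. From P75 to 6 months 10 of these 12 fell and 1 rose, with a median of -0.60. In the whole family 66 of 76 (86.8%) fell, and of all tested genes 29.4% were called lower. The share among the 12 lay near that of the family, and the difference was not tested. The largest falls were those of Mrps28 and Mrps16, and Mrps16 went from 1203.5, 1297 and 1342 to 525, 615 and 635. Mrps14 read 1992, 2099 and 2314 and then 1039, 1075 and 1299, a log2 change of -0.91. Mrpl12, Mrpl44, Mrps25, Mrps34, Mrps22, Mrps7 and Mrps23 fell by 0.73, 0.68, 0.63, 0.57, 0.53, 0.39 and 0.35 on the log2 scale. Of these the falls of Mrps22 and Mrps23 were lost with the length and GC trend removed, at -0.05 and -0.08. Mrps34 shares 77.8% of its exon bases with Mapk8ip3 and Nme3, of which Nme3 lies on the same strand. Mrps25 shares 53.7% with Nr2c2 on the opposite strand. Mrps2 was the gene that rose and Mrpl3 the one not called. From P18 to 24 months 11 of the 12 were lower, Mrps22 being the exception with a log2 change of -0.18. In the whole family 69 of 76 (90.8%) were lower over this span, and 34.3% of all tested genes were.

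Levels between members can be compared only per length. Per kilobase of merged exons the mean normalized read count over the 12 libraries was highest in Mrps33, at 2549, followed by Mrpl42 at 2313 and Mrpl52 at 2289. Mrps33 encodes a mitochondria-specific protein of the small subunit. At P18 and at 6 months Mrps33 had 3123 ± 125 and 1768 ± 170.3 per kilobase (SD, n = 3), and Mrpl42 had 2741 ± 150.1 and 1825 ± 191. These levels did not differ beyond their spread at 6 months. The order was not the same at each age. At P18 Mrpl41, at 3122 ± 662, stood beside Mrps33, at P75 Mrpl52 was first with 3192 ± 302 and Mrps33 next with 3011 ± 249.3, within their spread, and at 24 months Mrps33 was first with 2293 ± 67.2 and Mrpl42 next with 2204 ± 76.1. The lowest over the 12 libraries were Mrps10, Mrpl19 and Mrps5 with 81.7, 93.7 and 112 per kilobase. Merged exons count retained introns, and per kilobase of the transcript with the longest coding sequence, a measure added after the data were seen, Mrps21, Mrpl20 and Mrps33 ranked first and Mrps5, Mrpl1 and Mrpl47 last. The fall from P75 to 6 months was called in the abundant Mrps33 and Mrpl42 (-0.77 and -0.45) and in Mrps10 (-0.41), the lowest per kilobase of merged exons but ranked 44 of 76 per kilobase of that transcript, but that of Mrpl42 turned to a rise of 0.276 with the length and GC trend removed.

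Members often lie head to head with another gene. A gene on the opposite strand began within 1000 bases of the start of 27 of the 76, or 35.5%, against 13.4% of 14150 tested coding genes. Mrps11 and Mrpl46 form such a pair within the family, and from P75 to 6 months they had log2 changes of -0.46 and -0.40, both called. In 12 of the 27 the 2 genes overlapped at their starts. Of the 24 tested partners outside the family 8 fell and 5 rose from P75 to 6 months, with a median of 0.026. Over all tested genes 29.4% were called lower and 31.2% higher in this step. Mrpl47 fell by 0.66 beside the complex I gene Ndufb5 with a log2 change of -0.48. Mrps12 fell by 0.32, a call lost with the length and GC trend removed and without P75 replicate 3 or 6 months replicate 1, whereas its partner Sars2, the mitochondrial seryl-tRNA synthetase, rose by 0.54. Mrpl14 fell by 1.12 beside Tmem63b, which rose by 0.998. Mrpl44, a large subunit gene, overlaps Wdfy1 in 8.85% of its exon bases and read 966, 1201 and 1103 at P75 and 636, 676 and 721 at 6 months, while Wdfy1 had a log2 change of -2.46.

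Proteins of the mitochondrial ribosome are also encoded by genes with other names. Of 7 such genes 5 fell from P75 to 6 months, with a median of -0.67. Gadd45gip1 and Aurkaip1 had the largest falls, from 1645 ± 159 to 747 ± 117 and from 3402 ± 382 to 1687 ± 223 (SD, n = 3). Chchd1 rose from P18 to P75 by 0.35 and from 6 to 24 months by 0.58, and Dap3, a GTP-binding protein of the small subunit, fell by 0.21 from P18 to P75. For the factors that serve the ribosome the background is again 31.2% of all tested genes higher and 29.4% lower. Of 15 translation factors 4 rose and 5 fell from P75 to 6 months, with a median of -0.02, and of 24 assembly and ribosomal RNA factors 2 rose and 9 fell, with a median of -0.10. Tufm, the mitochondrial elongation factor Tu, rose from 921.5 ± 98.1 to 1317 ± 48.1, a log2 change of 0.52, while Tsfm, its exchange factor, fell from 601 ± 56.9 to 374 ± 46, a log2 change of -0.69. Mtfmt, which formylates the initiator tRNA, fell by 0.61, and Taco1, a translational activator, rose by 1.30, from 54.7 ± 7.27 to 136 ± 16.6. Among the assembly factors Ptcd1 rose by 0.80 and Fastkd2 by 0.24, and Mterfd1 and Wbscr16 fell by 0.70 and 0.54.

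Members of these lists also changed in the other steps. From P18 to P75 Taco1 and the inner membrane insertase Oxa1l fell by 0.63 and 0.38, and Guf1 and Mtrf1l rose by 0.30 and 0.25. Rbfa, a maturation factor of the small subunit, and Trub2 fell by 0.45 and 0.29, and Mterfd1 and Tfb2m rose by 0.28 and 0.24. From 6 to 24 months Taco1 and the elongation factor Gfm1 fell by 0.73 and 0.34, and Guf1 and Mtrf1l rose by 0.33 and 0.32. Ptcd1 and Trub2 fell by 0.42 and 0.32, Mterfd1 and Mpv17l2 rose by 0.44 and 0.34, and Gadd45gip1 rose by 0.33. Of 17 mitochondrial tRNA synthetase genes 3 rose and 7 fell from P75 to 6 months, with a median of -0.15.

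Genes of the respiratory chain and of the cytosolic ribosome gave the nearest comparison. Of 82 tested nuclear genes for subunits of oxidative phosphorylation 68 fell and 3 rose from P75 to 6 months, with a median of -0.76, and from 6 to 24 months 45 rose and 2 fell, with a median of 0.35. Of 77 tested cytosolic ribosomal protein genes 74 fell from P75 to 6 months, with a median of -0.87, and 40 rose from 6 to 24 months, with a median of 0.41. Over all tested genes 29.4% fell and 31.2% rose in the first of these steps, and 16.6% rose and 12.7% fell in the second. Those of at most 1000 bases had medians of -0.634 and 0.297. The sums of the 81 listed cytosolic genes overlapped between 6 and 24 months, at 691824 to 1054380 and 1045780 to 1386310, with 6 months replicate 1 lowest. Those of the 84 listed oxidative phosphorylation genes did not, at 343612 to 427054 and 437156 to 507604. From P18 to P75 the 2 kinds of ribosome differed in the fit of all 12 libraries. Of the 77 cytosolic genes 60 rose and 2 fell, with a median of 0.65, against 4 and 23 of the 76 mitochondrial genes. Over all tested genes 25.9% were higher and 22.9% lower. The mitochondrial counts moved with the scaling, as 11 of the 76 rose and 3 fell with the same total, against 32.4% and 12.5% of all genes. In addition, 6 rose and 10 fell without P75 replicate 1, against 23.4% and 20.8%. The cytosolic list was not counted under these alternatives. From P18 to 24 months 25 of the cytosolic genes were higher and 12 lower, with a median of 0.16, against 1 and 69. These differences between the lists were not tested. Of 8 markers of mitochondrial mass, such as the outer membrane channel Vdac1 and the citrate synthase gene Cs, 4 fell and 2 rose from P75 to 6 months, with a median of -0.21. Their summed level was 40717 to 43645 at P75 and 41516 to 43049 at 6 months, with Vdac1 and Hspd1 the 2 that rose, by 0.31 and 0.59.

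Markers of other cell types also differed between P75 and 6 months. The summed level of 8 neuronal markers was 180362 to 203356 at P75 and 166046 to 170190.0 at 6 months, with 5 called higher and 2 lower and a median log2 change of 0.32. Snap25 made up most of this sum and went from 141400 to 88330 on average, while Syt1 and Slc17a7 rose by 2.34 and 1.41. The summed level of 6 astrocyte markers was 57394 to 66828.5 and 69315 to 79766, with 2 higher, and that of 6 microglial markers 2819.5 to 3251 and 3811 to 4509.8, with 4 higher and 1 lower. For 4 endothelial markers it was 251 to 271 and 311 to 336, with 3 higher, for 4 markers of oligodendrocyte precursors 1121 to 1225 and 1376 to 1665, with 2 higher, and of 6 myelin markers 2 were higher. The red cell genes Hbb-b1, Hba-a1 and Hba-a2 were listed at 0 in every library, and Alas2 went from 416 ± 55.1 at P18 to 41.1 ± 4.32 at P75 (SD, n = 3). The part of other cell types in the changes of the ribosomal genes was not tested.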

How the data were processed

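RNA of purified myelin was sequenced on an Illumina instrument in 12 libraries, 3 at each of 4 ages. Reads were mapped by the authors to mm9 with TopHat2 2.0.8 (version per the labels) and counted per gene with HTSeq 0.5.4p1, and the counts were scaled by 1 DESeq size factor per library, SAMtools 0.1.19 also being named in the submitters' processing notes. The deposited signal is this normalized read count, 1 value per gene and library. Every value was a whole multiple of what 1 read was worth in its library (tolerance 0.02, 100% of values), which gave back the reads, 20299052 to 27214385 per library. Whether the counting used strand is not given in the sources used here.

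Groups and replicate numbers came from the labels. For ages other than 6 months the sources do not say that libraries were separate mice, and p-values then measure only the spread between these samples. Ages were compared with limma 3.58.1 (trend, empirical Bayes, R 4.3.3) on log2(normalized read count + 1) in 1 fit of the 12 libraries, for 14634 genes with a mean of at least 10, and genes were called at a Benjamini-Hochberg false discovery rate of 0.1. Fold changes are on this scale. The alternatives were pseudocounts of 0.5 and 10, no filter, a filter for a mean over 100, the replicate number as a block, a fit of only the ages compared, the same total, quantile normalization, edgeR 4.0.16 and DESeq2 1.42.0 on the recovered reads, a rate of 0.05, removal of a loess trend (span 0.5) on merged exon length and GC content, and each library left out. On simulated counts for 14634 genes made after the P18 to P75 comparison, limma recovered 72% of 100 genes changed 1.5-fold and 99% of 100 changed 3-fold. Only these 200 genes were changed there, whereas in the data 25.9% of the genes were called higher and 22.9% lower. The recovery therefore need not hold for the data.

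Members were matched by symbol to GENCODE vM1 on NCBIM37, the build of the files, and all 76 were found. Transcript length is that of the transcript with the longest coding sequence. Promoters came from RefSeq on GRCm38.p6. Python 3.11.15 with pandas 2.3.3 and matplotlib 3.10.9 was used for summaries and plots. Deviations from the age means were correlated between libraries of equal replicate number. For P75 and 6 months the correlations were 0.161, 0.101 and 0.187 for numbers 1, 2 and 3. Between the other pairs of ages they ran from -0.213 (6 and 24 months, number 1) to 0.163 (P18 and 6 months, number 2). Unequal numbers were not compared, so these values do not establish a pairing, and the design gives none.

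The members, the gene lists and the alternatives were chosen with earlier results of these data known. The genes named are the 5 largest called rises and falls of each consecutive step, the 3 highest and lowest per kilobase, members that rose and fell by over 0.5, the Mrps18 paralogs, Mrps30, Mrps36, the stalk genes, the disease genes, Mrpl44, and the 2 largest called rises and falls of each related list. Other genes were named after their values were seen.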

Additional observations from a re-analysis of the deposited data

How the results depend on the processing

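Under the alternatives run 62 to 72 members were lower from P18 to 24 months and 50 to 67 from P75 to 6 months, and their medians in both comparisons stayed negative. Of all genes 27.1 to 40.7% and 23.6 to 31.7% were lower. The median from P75 to 6 months moved to -0.297 with the length and GC trend removed. From P18 to P75 the same total gave 11 members higher, 3 lower and a median of 0.022. Of all genes 32.4% were higher and 12.5% lower in that fit, with a median of 0.139. A rate of 0.05 gave 1 member higher, against 22.1% of all genes. Leaving out 1 library gave 0 to 6 higher and 10 to 25 lower, 0 higher being the count without P75 replicate 3. The shares of all genes were then 22.9 to 26.7% higher and 19.7 to 23.3% lower. With P75 replicate 1 and 6 months replicate 1 both left out, a choice made after the data were seen, 10 were higher and 11 lower from P18 to P75, 1 was higher from P75 to 6 months, and 9 were higher from 6 to 24 months with a median of 0.080. From P75 to 6 months the same total gave 0 higher, by limma, with 0 at an unadjusted p under 0.05 and 3 by edgeR and by DESeq2 on their own scaling, a rate of 0.05 gave 1, the length and GC trend removed gave 6, and leaving out 1 library gave 1 to 3. From 6 to 24 months the same total gave 12 higher, the length and GC trend removed gave 6 higher, 3 lower and a median of 0.001, and leaving out 1 library gave 7 to 29 higher and medians of 0.080 to 0.227. The 7 and the median of 0.080 came without 6 months replicate 1, and without 24 months replicate 1 the count was 13. Of all genes 9.53% were higher with the same total, 13% with the trend removed and 9.53 to 15% with 1 library left out. With the length and GC trend removed the changes of Mrpl11, Mrpl42 and Mrps12 from P75 to 6 months reversed to 0.050, 0.276 and 0.115, that of Mrpl42 from 6 to 24 months to -0.104 and that of Mrpl52 from P18 to 24 months to 0.021. The cause of these shifts was not tested. With the replicate block 3 members were higher and 23 lower from P18 to P75, 3 and 66 from P75 to 6 months, 24 higher from 6 to 24 months, and 1 and 69 from P18 to 24 months. Among the named members it ended 1 call, the rise of Mrpl24 from P18 to P75, and it changed no call from P75 to 6 months. Over the named members 2452 results under an alternative stayed on their side of the threshold, 61 of which changed sign without being called in either fit, 123 lost a call, 45 gained one and 5 reversed. With 3 libraries per age, part of the changes of 1.5-fold or less can be missed, and each member had at least 283 reads in every library.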
